A study of Rattus norvegicus with 6 samples.

Results

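The genes described here belong to calcium and magnesium transport in the distal convoluted tubule and the connecting tubule of the kidney, and they were taken by name. The 10 genes were *Calb1*, *S100g*, *Trpv5*, *Trpv6*, *Slc8a1*, *Atp2b1*, *Atp2b4*, *Trpm6*, *Trpm7* and *Pvalb*. Of these, 9 had rows among the 17051 genes of the files, and *Trpm6* was not analysed here. Kidney tissue of 6 male Sprague Dawley rats was sequenced after 7 days of diet. The 3 rats of the AL group (rats 61, 71 and 88) ate standard laboratory chow ad libitum. The 3 rats of the HD group (rats 64, 67 and 69) ate the same kind of chow mixed with amino acids in the proportions of hemoglobin, at a daily 3 g per kg of body weight, which is the hyperammonemic diet of the labels. The labels give neither age nor the part of the kidney sampled, and each library came from 1 rat.

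Calcium enters a distal tubule cell from the urine through the channels TRPV5 and TRPV6, crosses the cell bound to calbindin, and leaves on the blood side through a sodium/calcium exchanger and through calcium pumps of the plasma membrane. Vitamin D and parathyroid hormone are known to regulate this route. Magnesium enters cells of the distal convoluted tubule through channels of TRPM6 and TRPM7, and parvalbumin is a calcium-binding protein of the early distal convoluted tubule.

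Along the calcium route, the levels of *Trpv5* and *Calb1* were higher in each HD rat than in every AL rat, by 6.54-fold and 4.15-fold in the fitted means of 3 rats per group. *Slc8a1* was 2.10-fold higher with overlapping groups. The second calbindin *S100g*, the pumps *Atp2b1* and *Atp2b4*, the channel *Trpv6* and the magnesium channel *Trpm7* overlapped between the groups. None of the 8 tested genes passed an adjusted *P* value of 0.05 in edgeR's quasi-likelihood test, and *Trpv5* alone passed it in DESeq2.

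The estimated counts summed to between 12499945 and 30466461 per rat, and a gene was tested when any rat reached 30 counts, which left 11553 genes. Counts were scaled to library size as CPM by edgeR's TMM method, and TPM, which also account for transcript length, were used where genes are compared with each other. In edgeR's quasi-likelihood test with Benjamini-Hochberg adjustment over all tested genes, 0 genes passed (0% of those tested). At an unadjusted *P* value under 0.05, 538 genes (4.66%) were higher and 686 (5.94%) lower in the HD group, and DESeq2 called 182 genes. A total of 838 genes (7.25%) were higher in CPM in each HD rat than in every AL rat, and 810 (7.01%) were lower in the same way. For 3 rats against 3, the two-sided exact permutation test has 0.1 as its smallest *P* value. According to the authors, the rats were assigned to the diets at random. Litter and processing batch were not given, and the *P* values measure the spread between these separate rats. In whole tissue, fewer cells of a type and less RNA per cell cannot be told apart.

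Per unit length, *Calb1* was the most abundant of the 9 genes, with a mean of 159.7 TPM over the 6 rats and a range from 30.2 to 362. The median over all tested genes was 16.6 TPM. *S100g* (27.1 TPM), *Trpm7* (21.6 TPM), *Atp2b1* (12.5 TPM), *Slc8a1* (8.76 TPM), *Atp2b4* (2.33 TPM), *Trpv5* (1.40 TPM), *Trpv6* (0.49 TPM) and *Pvalb* (0.065 TPM) followed in that order of mean level. The ranges over the rats overlapped between each neighboring pair in this order except *Trpm7* and *Atp2b1*. *Trpm7* was above *Atp2b1* in 6 of 6 rats, with 17.8 to 24.6 TPM against 9.86 to 15.5 TPM. *Slc8a1* was above *Atp2b4* in all 6 rats as well, although the ranges met. The entry channels were among the lowest of the tested genes, at percentile 8.24 of the tested genes for *Trpv5* and percentile 1.47 for *Trpv6*.

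**Figure D1:**
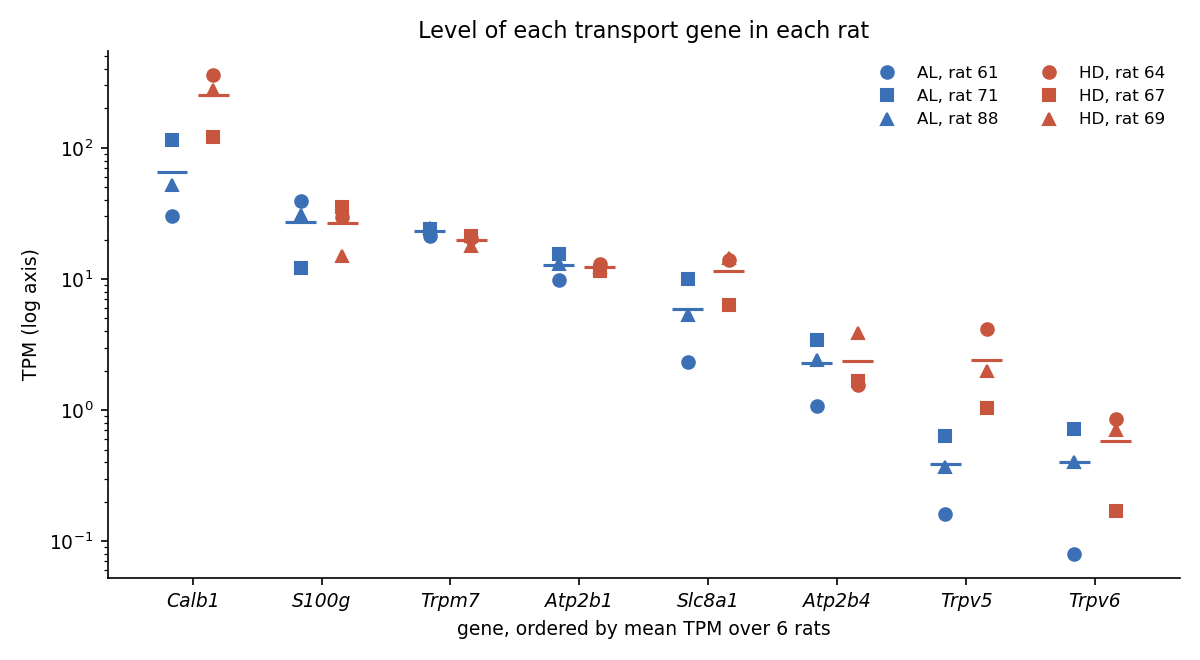
TPM (log axis) of 8 transport genes in each of the 6 rats, ordered by mean level; symbols mark single rats, colors the diet group and short lines the group means of 3 rats. *Calb1* and *Trpv5* are higher in each HD rat than in every AL rat, and the groups overlap for *Slc8a1* and *Trpv6*.

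*Trpv5* and *Trpv6* lie next to each other on the minus strand of chromosome 4. In rn5, the build of the files, *Trpv6* spans 135705696 to 135721353 and *Trpv5* spans 135734778 to 135761069, with 13424 bases between them, and each is listed with 1 transcript of 15 exons. The 250 bases before the start of each gene are shown because these neighboring genes encode related channels and differed in level between the rats. They were taken from RefSeq promoters of build GRCr8, in which 8 of the 10 genes were found, and they are written 5′ to 3′ along the minus strand, at chr4:71529383-71529632 for *Trpv5* and chr4:71489668-71489917 for *Trpv6*. Capitals mark CAGCTG, the letters of an E-box, and AGGTCA, the letters of a nuclear receptor half-site.
Trpv5: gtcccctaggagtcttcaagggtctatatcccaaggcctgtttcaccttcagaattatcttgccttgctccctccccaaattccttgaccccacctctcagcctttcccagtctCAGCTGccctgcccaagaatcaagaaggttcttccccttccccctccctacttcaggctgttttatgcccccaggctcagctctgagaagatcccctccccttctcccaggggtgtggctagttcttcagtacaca
Trpv6: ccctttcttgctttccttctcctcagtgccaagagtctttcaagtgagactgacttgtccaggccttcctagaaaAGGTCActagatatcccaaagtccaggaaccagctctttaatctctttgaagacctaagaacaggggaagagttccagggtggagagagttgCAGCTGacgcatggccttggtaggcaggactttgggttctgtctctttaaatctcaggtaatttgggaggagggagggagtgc

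CAGCTG begins 136 bases before the start of *Trpv5* and 83 bases before that of *Trpv6*, and 12% of the 33469 windows of this length hold it on either strand. AGGTCA begins 175 bases before the start of *Trpv6* and is not in the *Trpv5* window, and 14.1% of the windows hold it. TATAAA, held by 12.9% of the windows, is in neither. The motifs do not overlap each other, and a match describes letters only.

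*Trpv5*, the main entry channel for calcium in the distal nephron, was measured at 0.556, 1.77 and 1.12 CPM in AL rats 61, 71 and 88 and at 13.8, 3.50 and 6.04 CPM in HD rats 64, 67 and 69. The lowest HD rat was above the highest AL rat. The counts behind these levels were 7, 32 and 17 in the AL group and 163, 70 and 189 in the HD group, so that the AL levels rest on few reads. The log2 fold change was 2.71 ± 0.61 (standard error, n = 3 per group; edgeR *P* = 0.00271, adjusted *P* = 0.368; two-sided exact permutation *P* = 0.1), or 6.54-fold with an interval of 2 standard errors from 2.79 to 15.3. The adjusted *P* value of DESeq2 was 0.00231, and 0.805% of the tested genes were called higher in the HD group by that tool. Without rat 64 the edgeR fold was 4.07.

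*Trpv6*, the second entry channel, showed another pattern. Its levels were 0.159, 1.22 and 0.728 CPM in the AL group and 1.70, 0.350 and 1.28 CPM in the HD group. The groups overlapped, and HD rat 67 was below AL rats 71 and 88. The log2 fold change was 0.59 ± 0.78 (adjusted *P* = 0.855, edgeR), with an interval of 2 standard errors from 0.509-fold to 4.44-fold. The fold of 1.503 moved to 2.38 without rat 71, its largest change when single rats were left out. *Trpv6* was tested only because HD rat 69 reached 40 counts, while the AL rats had at most 22.

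The share of *Trpv5* in the summed counts of the 2 channels was 77.8% in AL rat 61 (exact 95% binomial interval 40.0 to 97.2%), 59.3% in rat 71 (45.0 to 72.4%) and 60.7% in rat 88 (40.6 to 78.5%). In the HD group the share was 89.1% in rat 64 (83.6 to 93.2%), 90.9% in rat 67 (82.2 to 96.3%) and 82.5% in rat 69 (77.0 to 87.2%). Each HD rat thus had a higher share than every AL rat. The interval of rat 61 reached across all of the HD rats, and that of rat 88 overlapped that of rat 69. The intervals cover counting error only. Per length, the ratio of *Trpv5* to *Trpv6* was 0.875 to 2 in the AL group and 2.82 to 6.12 in the HD group (two-sided exact permutation test, *P* = 0.1, adjusted *P* = 0.2 over 8 ratios). That *P* value is the smallest the test can give, and the ratio was chosen after the values were seen.

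**Figure D2:**
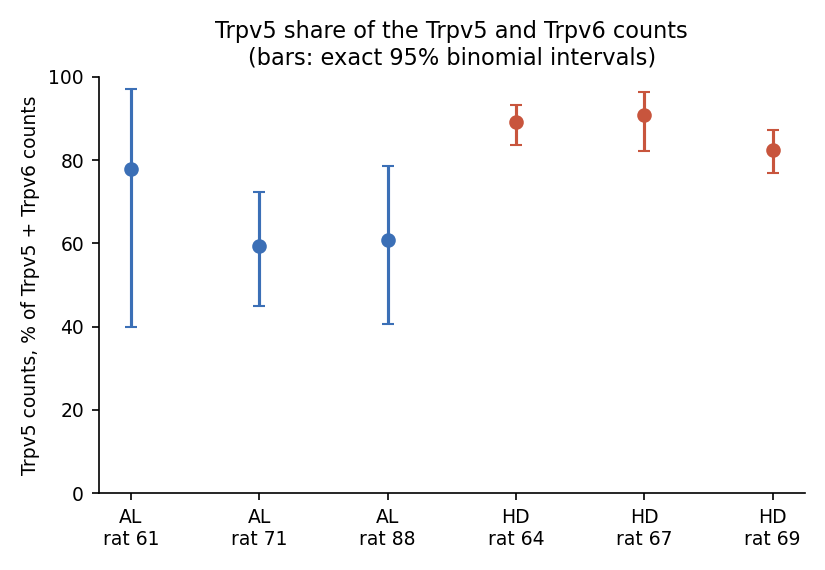
Counts of *Trpv5* as a percentage of the counts of *Trpv5* and *Trpv6* together in each rat (points), with exact 95% binomial intervals (bars). The HD rats lie between 82.5 and 90.9% and the AL rats between 59.3 and 77.8%, with a wide interval in rat 61, where the share rests on 9 counts.

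*Calb1* encodes the calbindin that carries calcium through distal convoluted and connecting tubule cells, and it lies on chromosome 5 from 34217930 to 34242324 in rn5. Its levels were 35.4, 113 and 54.3 CPM in AL rats 61, 71 and 88 and 413, 139.8 and 291 CPM in HD rats 64, 67 and 69. The groups did not overlap, but AL rat 71 and HD rat 67 were close to each other, and the highest rat had 11.96 times the TPM of the lowest. The log2 fold change was 2.05 ± 0.51 (edgeR *P* = 0.00449, adjusted *P* = 0.379; two-sided exact permutation *P* = 0.1), or 4.15-fold with an interval of 2 standard errors from 2.04 to 8.43. DESeq2 gave an adjusted *P* value of 0.0676. Leaving out 1 rat at a time gave 3.18-fold (without rat 64) to 6.27-fold (without rat 71), so that rat 71 moved the value by more than 1.5 times.

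*S100g*, the smaller calbindin, was measured at 9.69, 2.49 and 6.82 CPM in the AL group and at 7.13, 8.74 and 3.29 CPM in the HD group. The groups overlapped, and the rats were not ordered as for *Calb1*, with AL rat 61 the highest for *S100g* and the lowest for *Calb1*. The log2 fold change was 0.01 ± 0.53 (adjusted *P* = 0.995, edgeR), with an interval of 2 standard errors from 0.481-fold to 2.12-fold, and its sign turned under several settings. The ratio of *Calb1* to *S100g* in TPM was 0.772, 9.56 and 1.68 in AL rats 61, 71 and 88 and 12.2, 3.38 and 18.6 in HD rats 64, 67 and 69. This ratio varied 24.1-fold between the rats and overlapped between the groups (two-sided exact permutation test, *P* = 0.2, adjusted *P* = 0.267 over 8 ratios).

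On the blood side of the cell, *Slc8a1* encodes the sodium/calcium exchanger of this segment. Its levels were 10.2, 36.4 and 20.5 CPM in the AL group and 59.1, 27.1 and 55.9 CPM in the HD group. HD rats 64 and 69 were above all AL rats, whereas HD rat 67 was below AL rat 71. The log2 fold change was 1.07 ± 0.47 (edgeR *P* = 0.0527, adjusted *P* = 0.473; two-sided exact permutation *P* = 0.2), or 2.10-fold with an interval of 2 standard errors from 1.102 to 4.01. The unadjusted *P* value ranged from 0.00879 without rat 71 to 0.135 without rat 64. *Slc8a1* was also the only one of the 9 genes with more than 1 listed transcript, and its 9 transcripts are 6131 to 6239 bases long. RSEM gave estimated counts above 0 to 2 of them in 5 rats and to 4 in rat 69, and the posterior means placed reads on transcripts whose estimated count was 0. The division between the transcripts was therefore uncertain, and the summed count of the gene was used.

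For the plasma membrane calcium pumps, which share the exit step with the exchanger, no difference was detected. *Atp2b1* was measured at 29.2, 38.3 and 34.1 CPM in the AL group and at 37.4, 33.9 and 32.7 CPM in the HD group, with a log2 fold change of 0.03 ± 0.14 (adjusted *P* = 0.969, edgeR). Its interval of 2 standard errors, from 0.847-fold to 1.23-fold, was narrow beside those of the other calcium genes. *Atp2b4* was measured at 3.02, 7.93 and 5.96 CPM in the AL group and at 4.24, 4.65 and 9.62 CPM in the HD group, with a log2 fold change of 0.14 ± 0.44 (adjusted *P* = 0.955, edgeR) and an interval from 0.594-fold to 2.04-fold. The groups overlapped for both pumps, and the sign of both differences turned under other settings.

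*Trpm7*, a magnesium channel found in most cells, had the smallest span in TPM of the 8 tested transport genes. Its levels were 103.9, 97.7 and 106.9 CPM in the AL group and 96.8, 103.4 and 77.5 CPM in the HD group, and they spanned 1.38-fold between the lowest and the highest rat in TPM. The groups overlapped, with a log2 fold change of -0.15 ± 0.13 (adjusted *P* = 0.749, edgeR) and an interval of 2 standard errors from 0.749-fold to 1.08-fold. *Pvalb*, which encodes parvalbumin, had 2 counts in AL rat 71 and 0 counts in the other 5 rats. A count of 0 allows a level of up to 0.0959 CPM in rat 69, the deepest library, and up to 0.255 CPM in rat 64, the shallowest. No difference in *Pvalb* was detectable at this depth, and the gene was not tested.

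Of the 8 tested genes, 7 were higher in the HD group and 1 was lower. Their median log2 fold change was 0.36, against 0.01 over all tested genes. At an unadjusted *P* value under 0.05, 2 of the 8 were higher (25.0%, beside 4.66% of all tested genes) and 0 were lower (beside 5.94%). For these 2 genes, *Trpv5* and *Calb1*, the groups did not overlap, beside 7.25% of all tested genes in that direction. The transport genes were also chosen with earlier results of these data known.

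**Figure D3:**
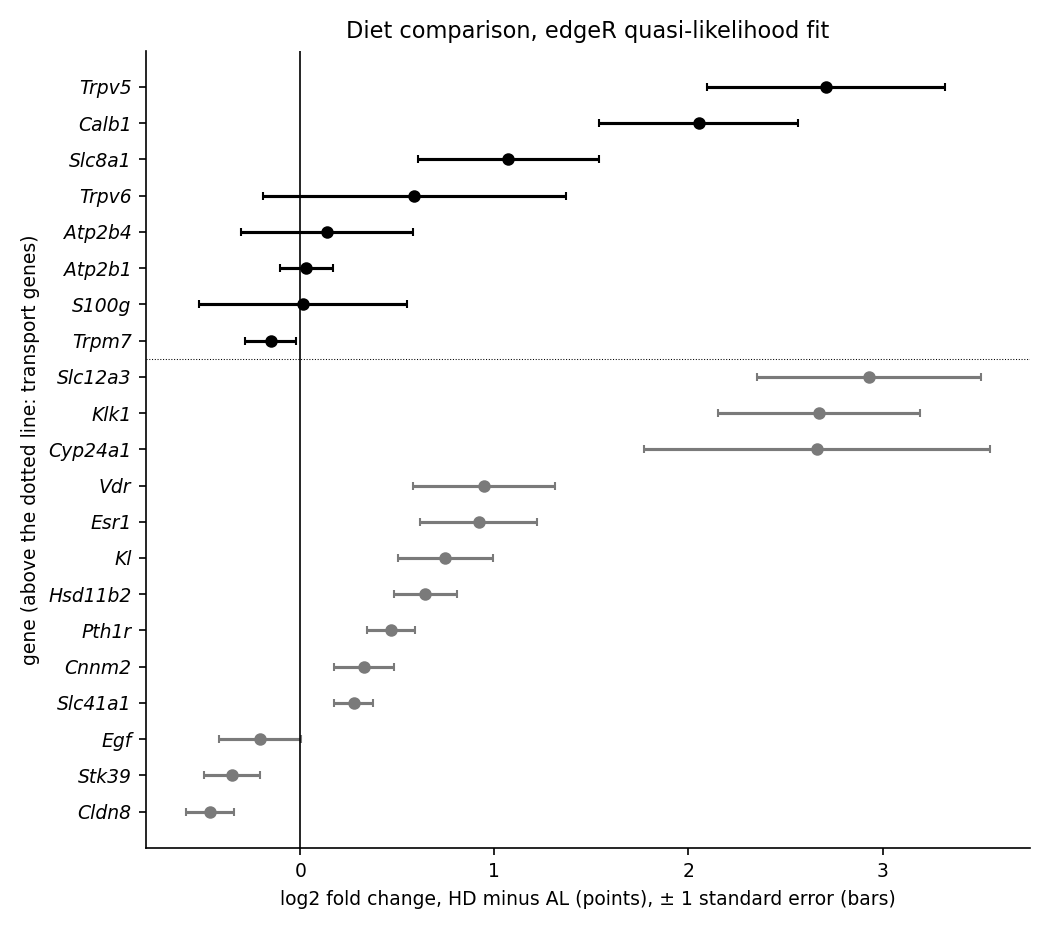
Log2 fold change between the HD and AL groups (points) with 1 standard error on each side (bars) for the 8 tested transport genes (above the dotted line) and for 13 other genes of distal calcium and magnesium handling (below it), from edgeR's quasi-likelihood fit. *Trpv5* (2.71) and *Calb1* (2.05) stand with *Slc12a3* (2.93), *Klk1* (2.67) and *Cyp24a1* (2.66), and *Atp2b1* (0.03) and *S100g* (0.01) lie at 0. No gene shown passed an adjusted *P* value of 0.05 in this fit.

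The other genes of distal calcium and magnesium handling were taken from a list of 56, of which 49 could be tested. In edgeR's test, 0 of the 49 passed an adjusted *P* value of 0.05. DESeq2 called 4 of the 49, all higher in the HD group, beside 0.805% of all tested genes. At an unadjusted *P* value under 0.05, 9 of the 49 (18.4%) were higher in the HD group, beside 4.66% of all tested genes, and 2 (4.08%) were lower, beside 5.94%. The groups did not overlap for 11 genes with higher HD levels (22.4%, beside 7.25% of all tested genes) and for 1 with lower levels (2.04%, beside 7.01%). The median log2 fold change was 0.12. The list was written with earlier results of these data known, so its shares are no independent support. Its distal convoluted and connecting tubule genes, 7 of them tested, gave 3 of the 9 higher genes and 3 of the 4 DESeq2 calls.

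Of the distal tubule genes on this list, *Slc12a3* encodes the sodium/chloride cotransporter that defines the distal convoluted tubule. It was measured at 27.6, 18.1 and 27.2 CPM in AL rats 61, 71 and 88 and at 287, 51.5 and 216 CPM in HD rats 64, 67 and 69. The groups did not overlap, and the log2 fold change was 2.93 ± 0.58 (adjusted *P* = 0.338 in edgeR and 0.00473 in DESeq2). Without rat 67 it was 3.37, with an adjusted *P* value of 0.0222 in edgeR, so that this call rests on leaving that rat out. *Klk1*, the tissue kallikrein of the connecting tubule, was measured at 27.2, 81.5 and 47.6 CPM in the AL group and at 528, 164 and 308 CPM in the HD group (log2 fold change 2.67 ± 0.52, adjusted *P* = 0.338 in edgeR and 0.00497 in DESeq2). *Klk1* belongs to a family of near-identical rat kallikrein genes, so the assignment of its reads is uncertain. *Hsd11b2*, the enzyme that keeps glucocorticoids off the mineralocorticoid receptor, was higher in each HD rat by a log2 fold change of 0.64 ± 0.16 (adjusted *P* = 0.390 in edgeR and 0.0359 in DESeq2). *Stk39*, the kinase that acts on the cotransporter, had a log2 fold change of -0.35 ± 0.14 with overlapping groups (adjusted *P* = 0.455, edgeR).

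Of the 9 tested genes of vitamin D and hormone signals, 8 were higher in the HD group, 5 of them at an unadjusted *P* value under 0.05 in edgeR, beside 4.66% of all tested genes, and 0 were lower at that value, beside 5.94%. *Cyp24a1*, the enzyme that degrades active vitamin D and a known target of the vitamin D receptor, was measured at 6.04, 2.88 and 9.53 CPM in the AL group and at 91.5, 16.9 and 9.05 CPM in the HD group. The groups overlapped, and rat 64 decided the size of the difference, since the log2 fold change was 2.66 ± 0.89 with it (adjusted *P* = 0.406, edgeR) and 1.08 without it. *Vdr*, the vitamin D receptor, was measured at 9.29, 13.7 and 9.07 CPM in the AL group and at 32.8, 12.5 and 17.2 CPM in the HD group, again with overlapping groups (log2 fold change 0.95 ± 0.37, adjusted *P* = 0.432, edgeR). *Kl*, which encodes klotho, had a log2 fold change of 0.75 ± 0.24 with overlapping groups (adjusted *P* = 0.406, edgeR). *Esr1*, the estrogen receptor alpha, and *Pth1r*, the parathyroid hormone receptor, were higher in each HD rat, by 0.92 ± 0.30 (adjusted *P* = 0.406) and 0.47 ± 0.12 on the log2 scale (adjusted *P* = 0.398 in edgeR and 0.0392 in DESeq2). For *Esr1* the gap was narrow, with 6.984 CPM in AL rat 71 and 6.995 CPM in HD rat 67. *Cyp27b1*, which makes active vitamin D, was measured at 0.4997 CPM or less in all 6 rats and was not tested.

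Of the 14 magnesium genes, all tested, 8 were higher and 6 lower in the HD group. Their median log2 fold change was 0.10. At an unadjusted *P* value under 0.05 in edgeR, 1 was higher (7.14%, beside 4.66% of all tested genes) and 0 were lower (beside 5.94%). *Slc41a1*, a magnesium exchanger, was the only one at an unadjusted *P* value under 0.05, with 42.9, 42.8 and 45.6 CPM in the AL group and 55.6, 49.7 and 53.7 CPM in the HD group (log2 fold change 0.28 ± 0.10, adjusted *P* = 0.409, edgeR). The groups did not overlap for this gene. *Cnnm2*, a magnesium transport protein of the distal convoluted tubule, was measured at 19.8, 22.3 and 18.9 CPM in the AL group and at 30.1, 22.4 and 24.4 CPM in the HD group (adjusted *P* = 0.505, edgeR). *Egf*, a growth factor that stimulates magnesium uptake, was measured at 1170.2, 952 and 856 CPM in the AL group and at 753, 708 and 1114 CPM in the HD group. These levels overlapped, with a log2 fold change of -0.21 ± 0.21 (adjusted *P* = 0.791, edgeR).

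Of the 5 tested claudins of the paracellular route, 1 was higher and 4 were lower. *Cldn8*, a claudin of the distal nephron, was lower in each HD rat, with 110.1, 121.8 and 112.4 CPM in the AL group and 94.98, 77.4 and 77.1 CPM in the HD group (log2 fold change -0.47 ± 0.12, adjusted *P* = 0.398 in edgeR and 0.0643 in DESeq2). Of the 14 tested genes among the other calcium exchangers, pumps, binding proteins and channel partners, 7 were higher and 7 lower. At an unadjusted *P* value under 0.05 in edgeR, 0 were higher (beside 4.66% of all tested genes) and 0 lower (beside 5.94%).

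The rats took the same order for several of these genes. For *Calb1*, *Trpv5*, *Klk1* and *Hsd11b2* the order from high to low was rat 64, 69, 67, 71, 88 and 61. All of these were higher in each HD rat than in every AL rat, so only the order within each group could differ. How many of all tested genes had this order was not counted. *Slc8a1* followed it except that rats 71 and 67 changed places. *Slc12a3* had the same order within the HD group but not within the AL group, where rat 71 was the lowest. *Trpv6* was also highest in rats 64 and 69 and lowest in rat 61, with rat 67 next to the lowest. *Vdr* and *Kl* had the order 64, 69, 71, 67, 61 and 88, and *Cyp24a1* had 64, 67, 88, 69, 61 and 71. *S100g*, *Atp2b4*, *Atp2b1* and *Trpm7* each had another order.

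**Figure D4:**
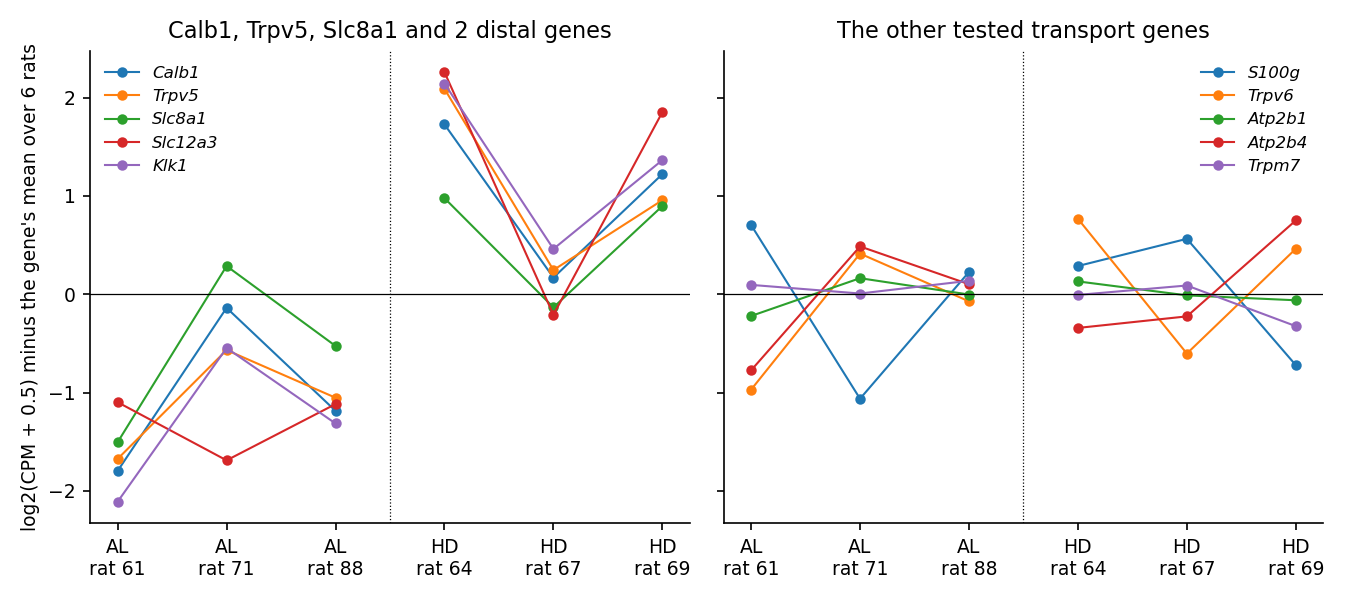
Level of each gene in each rat as log2(CPM + 0.5) minus the mean of that gene over the 6 rats; lines only join the points of a gene within a diet group. In the left panel *Calb1*, *Trpv5*, *Slc8a1*, *Slc12a3* and *Klk1* are highest in rats 64 and 69, and in the right panel *Trpv6* is highest in the same rats, while the other 4 genes each follow another order.

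Among the genes whose levels over the 6 rats were most like those of *Trpv5* were *Cs* and *Klk1*, with Pearson's *r* of log2(CPM + 0.5) of 0.994 and 0.991 among 9382 genes with a mean of at least 5 CPM. For *Calb1* they were *Rbm47* (0.997), *Esr1* (0.996) and *Klk1c7* (0.996), among 9381 genes. These values describe 6 libraries that all genes share, and they are the highest of many. *Cs*, citrate synthase, differed by only 0.26 on the log2 scale between the groups, while *Rbm47*, an RNA-binding protein, differed by 0.88 and *Klk1c7*, another kallikrein, by 2.66.

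Ratios within a rat compare these genes without the library scaling. Per length, the ratio of *Calb1* to *Klk1* was 0.644, 0.686 and 0.564 in AL rats 61, 71 and 88 and 0.387, 0.421 and 0.467 in HD rats 64, 67 and 69, a span of 1.77-fold between the lowest and the highest rat, although *Calb1* itself spanned 11.96-fold. The ratio of *Slc8a1* to *Calb1* was 0.0774 to 0.102 in the AL group and 0.0388 to 0.0526 in the HD group, and that of *Trpv5* to *Calb1* was 0.00529 to 0.00711 and 0.00720 to 0.0116, so that the groups nearly met. The groups did not overlap for any of these 3 ratios (two-sided exact permutation tests, each *P* = 0.1 and adjusted *P* = 0.2 over 8 ratios). In these rats *Trpv5* was higher and *Slc8a1* lower in the HD group relative to *Calb1*, with few *Trpv5* counts in the AL group. That *P* value is the smallest these tests can give. The ratios were chosen after the values were seen, so the tests lend these directions no support. The ratio of *Calb1* to *Slc12a3* was 3.22 to 15.6 in the AL group and 3.37 to 6.81 in the HD group, which overlapped (two-sided exact permutation test, *P* = 0.7, adjusted *P* = 0.8). The groups also overlapped for *Trpv5* to *Slc12a3*, with 0.0171 to 0.0850 in the AL group and 0.0242 to 0.0588 in the HD group. For *Slc8a1* to *Atp2b1* they overlapped at 0.237 to 0.649 in the AL group and 0.549 to 1.17 in the HD group.

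Markers of other kidney cells also moved with the groups. Of the 11553 tested genes, 5928 were higher and 5625 lower in the HD group. At an unadjusted *P* value under 0.05 in edgeR, 4.66% of them were higher and 5.94% lower. The summed CPM of 6 podocyte markers was 60.8 to 143 in the AL group and 164 to 359.9 in the HD group, and 6 of 6 were higher, 4 of them at an unadjusted *P* value under 0.05 in edgeR. The sum of 8 proximal tubule markers was 10767 to 13199 CPM in the AL group and 13616 to 16281 CPM in the HD group. Of these markers 7 of 8 were higher, but only 1 of them at that value. Of 5 inner medulla markers 4 were tested, and 4 were lower, 3 of them at that value, with sums of 201 to 719 and 131 to 210 CPM. Of 6 macrophage markers 5 were tested, and 5 were lower, 4 of them at that value, with sums of 43.4 to 115 and 23.2 to 48.3 CPM. Of 6 thick ascending limb markers 6 were lower, 1 of them at that value, with overlapping sums of 5711 to 6542 and 3876 to 6158 CPM. The adrenal cortex list, with 2 of 6 markers tested, summed to 9.26 to 11.5 and 7.44 to 8.91 CPM. Sums overlapped for intercalated cells (984 to 1204 and 901 to 1059 CPM), endothelium (139.7 to 421 and 90.7 to 312 CPM), smooth muscle and mesangium (75.3 to 179 and 76.2 to 350.1 CPM), skeletal muscle (40.7 to 85.1 and 32.6 to 69.7 CPM) and red blood cells (271 to 416 and 368 to 692 CPM). The listed markers of the segments that carry these transporters did not all go in the same direction. The distal convoluted tubule list summed to 904 to 1219 and 784 to 1358 CPM, with *Kcna1* at 0 counts in all rats. Most of this sum was *Egf*, so the sum mainly followed that gene, which had a log2 fold change of -0.21. The other 3 of the 4 tested markers were higher (*Slc12a3*, *Kcnj10* and *Cnnm2*, by 2.93, 0.71 and 0.33 on the log2 scale), 1 of them at that value. The connecting tubule and principal cell list summed to 1581 to 1787 and 1603 to 2338 CPM. Of its 9 markers, 3 were higher (*Scnn1b*, *Hsd11b2* and *Klk1*) and 3 lower (*Aqp3*, *Fxyd4* and *Avpr2*) at that value. The part of the sampled region and of these other cells in the differences of *Trpv5*, *Calb1* and *Slc8a1* was not tested.

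**Figure D5:**
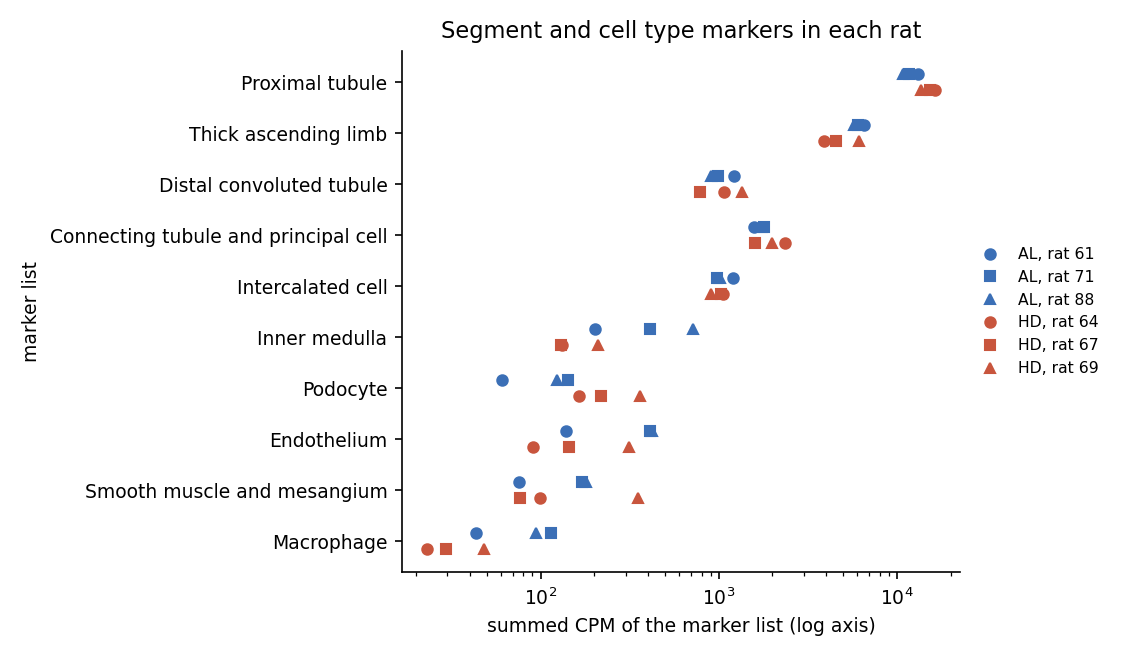
Summed CPM (log axis) of 10 marker lists in each rat; symbols mark single rats and colors the diet group. The groups are apart for the podocyte and proximal tubule lists and overlap for the distal convoluted tubule list and the connecting tubule and principal cell list.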

How the data were processed

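Kidney poly(A) RNA of 6 rats was sequenced as single-end reads, 1 library per rat. The authors quantified transcripts with RSEM 1.1.15 (named in the submitters' processing notes too), default parameters and University of California Santa Cruz gene definitions for rn5. They deposited estimated counts, which are expected counts without normalization, posterior means of these counts, and TPM. The FPKM values were not used here. Strand was not stated for the counting, so reads of overlapping or antisense genes cannot be separated.

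Estimated counts were summed per gene and rounded. Genes that reached 30 counts in any rat were fitted with edgeR 4.0.16 (R 4.3.3, TMM, quasi-likelihood test, diet as the only factor). The standard error is the absolute log2 fold change divided by the square root of F. DESeq2 1.42.0 and limma 3.58.1 were alternatives. Exact permutation tests used log2(CPM + 0.5) for genes and log2 ratios, with scipy 1.17.1. Totals of 12499945 to 30466461 counts set the precision. All 6 rats differed beyond sampling noise (chi-square per degree of freedom 23.6 to 77.7 between pairs). The tests were checked on simulated counts.

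The transport genes, the gene and marker lists and the tests were chosen with earlier results of these data known. The genes named are the 10 transport genes, listed genes at an unadjusted *P* value under 0.05, *Slc12a3*, *Egf*, *Vdr*, *Cyp24a1*, *Cyp27b1*, *Kl*, *Cnnm2* and *Klk1*, and the 3 genes most like *Trpv5* (the smallest *P* value) and *Calb1*. Not every gene under this rule is reported here. *Kcna1*, *Kcnj10*, *Scnn1b*, *Aqp3*, *Fxyd4* and *Avpr2* were named as segment markers, and the 8 ratios were chosen after the values were seen.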

Additional observations from a re-analysis of the deposited data

How the results depend on the processing

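The log2 fold changes of *Trpv5*, *Calb1* and *Slc8a1* stayed above 0 in every setting that gave them. With limma-trend on log2(TPM + 1), which understates low genes, the fold of *Trpv5* was 2.31 and that of *Cyp24a1* 3.71. When each rat had to reach 10 counts, *Trpv5* and *Trpv6* could not be fitted, and 1 of the transport genes in place of 2 had an unadjusted *P* value under 0.05. DESeq2 called 182 genes and 1 transport gene past the adjusted threshold, and a count above 0 in at least 1 rat gave 2 genes and 0 transport genes. Leaving out 1 rat at a time gave 0 to 4 genes past the adjusted threshold, 605 to 1793 genes and 6 to 16 of the other listed genes at an unadjusted *P* value under 0.05, and *Slc12a3* alone of the named genes passed in one of these fits. The sign of small differences turned. *S100g* had -0.0514 with library size alone and -0.00530 under the 10-count minimum, and *Atp2b1* had -0.0609 with library size alone and -0.0305 with limma-trend on log2(TPM + 1). Without single rats, *S100g* ranged from -0.37 to 0.45, *Atp2b1* from -0.0637 to 0.13 and *Atp2b4* from -0.34 to 0.47. Library size alone moved the median of all tested genes to -0.07. No paired analysis was possible because each rat has its own number and the groups share none. Levels of *Trpv5* and *Trpv6* in the AL group rest on at most 32 counts a rat.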
